A study of Sus scrofa with 8 samples.

Results

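BTG2, PLK2, IER5, IFRD1 and CYR61 (the older symbol of CCN1) are effector genes that cells switch on early after growth factors or stress and that do not belong to the AP-1 transcription factors. All probe sets whose single symbol in the platform annotation was one of these 5 names were taken, which gave 8 probe sets of 23999 tested and 5 genes of 6765 named ones. The genes were chosen by their high-dose levels in earlier results of these same arrays, in which BTG2 and IER5 stood well above untreated animals. Comparisons that involve the high-dose animals are therefore given for these genes as a description, without a test, and limma's test is given for low dose against untreated.

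Glial growth factor 2 (GGF2) is a form of neuregulin-1 that acts on heart muscle cells through ERBB receptors, and the study measured RNA in pigs that received it after myocardial infarction. Left ventricular muscle away from the infarct was taken from 8 castrated male Yorkshire pigs under 1 year old, with 1 Affymetrix porcine array per animal. Every animal had an infarct: 3 were untreated, 3 had infusions of 0.67 mg/kg GGF2 each (the low dose) and 2 had infusions of 2.0 mg/kg each (the high dose), both for a period of 4 weeks. The sources used here do not say how long after the last infusion the tissue was taken, nor whether untreated animals received a vehicle.

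Early response genes carry unstable transcripts and are induced within a short time of a stimulus, without new protein synthesis. Those that encode transcription factors, such as FOS, switch on later genes, while the effectors act directly on RNA decay, kinase signalling, chaperone control or the matrix. In heart muscle they are known to respond to stretch and to growth factors.

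Across the 8 arrays the correlation between arrays lay between 0.981 and 0.994. Of 12 cardiomyocyte markers 11 were measured, none of them close to background, with mean log2 levels per animal of 13.72 to 13.87 in untreated animals, 13.76 to 13.82 at the low dose and 13.82 to 13.86 at the high dose. As a gauge of RNA quality, the 3' actin control exceeded the 5' one by 4.88 to 5.26 log2 units in untreated animals, 5.48 to 6.04 at the low dose and 4.92 to 5.18 at the high dose. For GAPDH the same gap was 1.09 to 1.65 in untreated animals, 1.32 to 1.62 at the low dose and 1.10 to 1.17 at the high dose, so the low-dose arrays stood apart from the untreated ones in actin only and from the high-dose ones in both.

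All values that follow are RMA levels on the log2 scale, and each gene is represented by its brightest probe set, the one with the highest mean over the 8 arrays. In each array, each of these 5 probe sets lay above that array's upper quartile. Levels of different probe sets are not set against each other.

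BTG2, an antiproliferative protein that binds the CCR4-NOT complex and speeds mRNA decay, measured 8.68, 9.61 and 9.55 in the 3 untreated animals, 10.29, 8.18 and 9.06 at the low dose and 11.39 and 11.23 at the high dose. Both high-dose animals lay above the other 6, with a gap of 0.94 to the nearest, and the low-dose animals spanned the whole untreated range. The high-dose mean was 11.31 ± 0.12 (SD, n = 2), against 9.28 ± 0.52 in untreated animals (SD, n = 3), a log2 difference of 2.03 ± 0.53 (SE) or 4.10-fold.

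PLK2, a polo-like kinase induced by serum and by stress, measured 8.39, 9.37 and 9.36 in untreated animals, 9.54, 8.31 and 8.50 at the low dose and 11.25 and 11.07 at the high dose. The high-dose pair stood 1.53 above the next animal, the widest such gap among the 5 brightest probe sets. Its high-dose mean of 11.16 ± 0.13 (SD, n = 2), against 9.04 ± 0.56 in untreated animals (SD, n = 3), gave a difference of 2.12 ± 0.40 (SE) or 4.36-fold.

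IER5, a nuclear protein that in human cells raises the activity of the heat shock factor HSF1, measured 8.68, 10.29 and 8.79 in untreated animals, 10.14, 8.85 and 9.88 at the low dose and 11.34 and 11.35 at the high dose. The 2 high-dose animals were almost identical, while untreated replicate 2 stood well above the other 2 untreated animals. The high-dose mean was 11.34 ± 0.01 (SD, n = 2), against 9.26 ± 0.90 in untreated animals (SD, n = 3), a difference of 2.09 ± 0.51 (SE) or 4.25-fold.

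IFRD1, a transcriptional coregulator that in mice takes part in muscle regeneration, measured 9.28, 11.35 and 8.95 in untreated animals, 11.13, 9.02 and 10.36 at the low dose and 12.35 and 12.25 at the high dose. It varied more among untreated animals than the other 4 genes, by 2.40 log2 units, and its high-dose animals lay 0.91 above untreated replicate 2. The high-dose mean of 12.30 ± 0.07 (SD, n = 2), against 9.86 ± 1.30 in untreated animals (SD, n = 3), gave a difference of 2.45 ± 0.75 (SE) or 5.45-fold. Without untreated replicate 2 the difference was 3.19.

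CYR61, a secreted matrix-associated protein that binds integrins and is a target of the YAP coactivator, measured 9.85, 9.93 and 9.37 in untreated animals, 10.42, 8.50 and 8.25 at the low dose and 11.20 and 11.24 at the high dose. Its 3 untreated animals lay close together, and 2 of the 3 low-dose animals lay below all of them. The high-dose mean of 11.22 ± 0.03 (SD, n = 2), against 9.71 ± 0.30 in untreated animals (SD, n = 3), gave a difference of 1.51 ± 0.55 (SE) or 2.84-fold, the smallest of the 5.

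**Figure D1:**
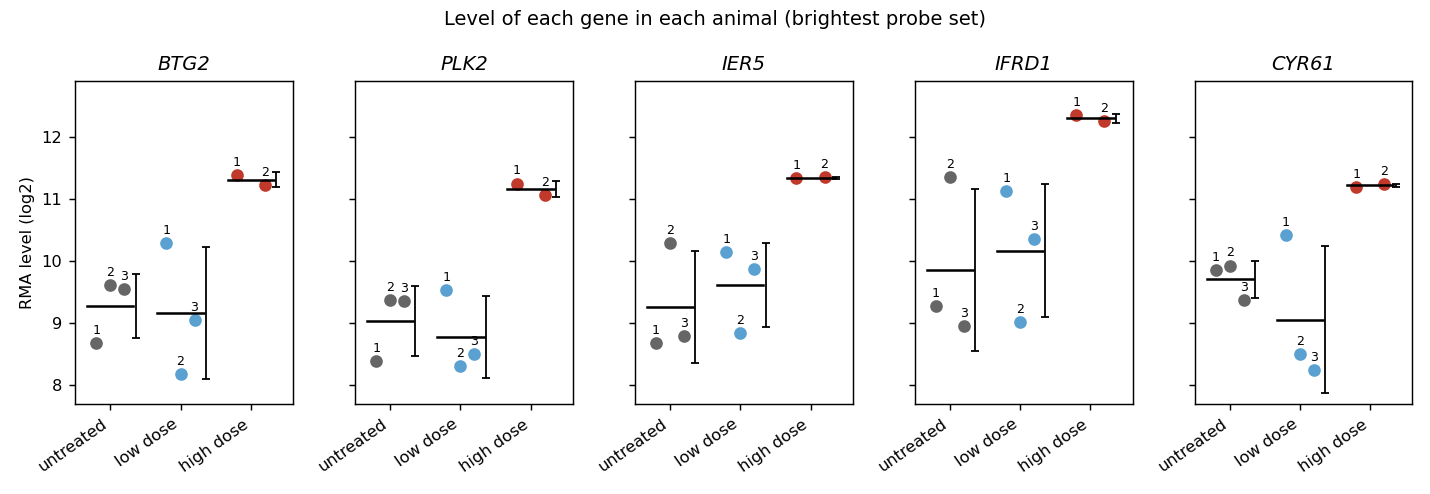
RMA level (log2) of the brightest probe set of each gene in each animal by group, in order of dose. Points are animals numbered by replicate, horizontal lines are group means and the bars beside them are SDs (n = 3, 3 and 2). In each panel both high-dose animals lie above the other 6, by 0.77 for CYR61 up to 1.53 for PLK2.

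At the high dose against untreated, all 5 genes were higher, with differences between 1.51 and 2.45 and a median of 2.09. The median over all probe sets was 0.015. All 5 were at least 2-fold higher with no overlap between the groups, which held for 0.542% of all probe sets (130 of 23999) and for 0.739% of the brightest probe sets of the named genes, while 0.654% of all probe sets were lower by the same rule. The choice of the genes used this comparison, so nothing is read from that count. In limma with Benjamini-Hochberg adjustment over all probe sets, 0% had an adjusted p under 0.05 (0 of 23999, the smallest being 0.0505), and 7.97% had an unadjusted p under 0.05. Ranked from the largest increase among the 23999 probe sets, IFRD1 was at place 16, PLK2 at 27, IER5 at 29, BTG2 at 31 and CYR61 at 73.

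The high-dose arrays varied little in these genes. The 2 animals differed by 0.01 for IER5, 0.05 for CYR61, 0.10 for IFRD1, 0.17 for BTG2 and 0.18 for PLK2. The 3 low-dose animals spanned between 1.23 (PLK2) and 2.17 (CYR61), and the 3 untreated animals between 0.55 (CYR61) and 2.40 (IFRD1). A span over 2 animals tends to be smaller than one over 3, and the 2 high-dose pigs carried consecutive tag numbers, so a feature they share besides the dose cannot be told apart from it.

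The larger dose was also set against the smaller one. All 5 genes were higher at the high dose than at the low dose, with a median difference of 2.14, and 5 of 5 were at least 2-fold higher with no overlap (0.404% of all probe sets, 0.621% of the brightest per gene). Over all probe sets 0.629% were lower by that rule, 0.025% had a limma adjusted p under 0.05 and 10.2% an unadjusted one. The difference was 2.38 ± 0.40 for PLK2, 2.16 ± 0.55 for CYR61, 2.14 ± 0.53 for BTG2, 2.14 ± 0.75 for IFRD1 and 1.72 ± 0.51 for IER5 (SE). Without low-dose replicate 1, which was the highest of its group in all 5 genes, CYR61 differed by 2.84. This comparison and that with untreated animals share the high-dose arrays and are not independent of each other.

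At the low dose against untreated, none of the 5 genes passed. In limma, 0 of the 8 probe sets had an unadjusted p under 0.05, the smallest being 0.218 for CYR61, and each had an adjusted p = 0.998. Over all probe sets 4.5% had an unadjusted p under 0.05 and 0% an adjusted one. Of the 5 genes 2 were higher and 3 lower, with a median of -0.10, and 0 were at least 2-fold apart with no overlap (0.075% of all probe sets were higher by that rule and 0.0542% lower).

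CYR61 had 9.06 ± 1.19 at the low dose and 9.71 ± 0.30 in untreated animals (SD, n = 3 each), at -0.66 ± 0.49 (SE) with a 95% interval of -1.78 to 0.47. Without low-dose replicate 1 it was -1.34. Which gene differed most depended on single animals: without untreated replicate 2 CYR61 was at -0.55, IER5 at 0.89 and IFRD1 at 1.06. For PLK2 the difference was -0.26, with an interval of -1.07 to 0.56, and for BTG2 it was -0.10, from -1.19 to 0.99. IER5 and IFRD1 were at 0.37 and 0.31, with intervals of -0.67 to 1.41 and -1.22 to 1.85. In linear terms the intervals for BTG2 run from 0.437-fold to 1.99-fold and for IFRD1 from 0.429-fold to 3.60-fold. The interval for IFRD1 thus includes a difference of 2-fold in either direction. Ordered by mean, the high dose came first for all 5 genes, and the low-dose and untreated means below it did not differ beyond their spread.

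**Figure D2:**
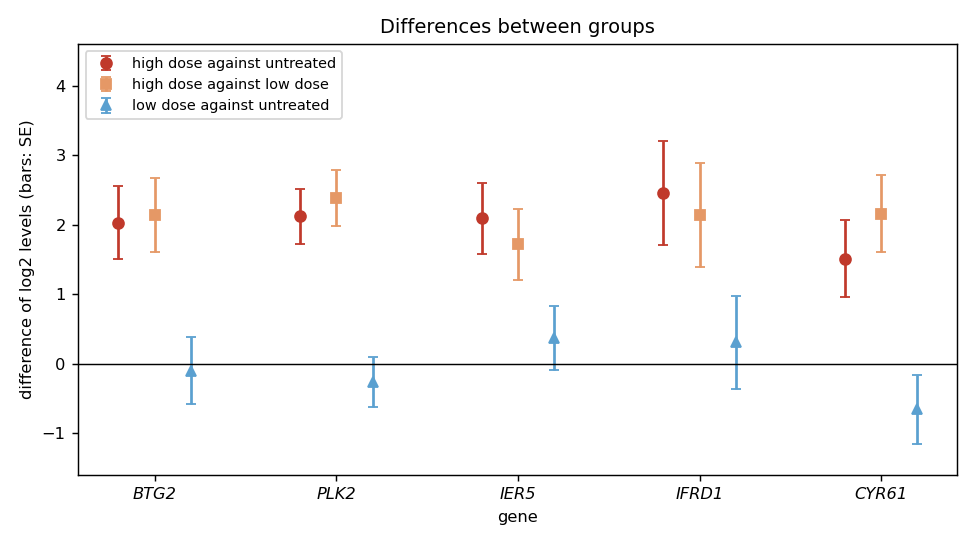
Difference of log2 levels for each gene (brightest probe set) in 3 comparisons, with bars of 1 SE from limma. The points for high dose against untreated and against low dose lie between 1.51 and 2.45, and those for low dose against untreated lie between -0.66 and 0.37.

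Genes with several probe sets allowed a check within a gene. The dimmer IFRD1 probe set measured 5.37, 7.21 and 4.81 in untreated animals, 6.64, 5.0 and 6.02 at the low dose and 9.11 and 9.03 at the high dose. It ranked the 8 animals in the same order as the brighter one (Spearman's rank correlation 1), and its high-dose difference from untreated was wider, at 3.27 ± 0.67 (SE) or 9.65-fold. For IER5 a dimmer probe set, at 6.85 and 7.04 in the high-dose animals and between 4.64 and 5.45 in untreated ones, differed by 1.97 ± 0.29 (SE). The last IER5 probe set, between 2.92 and 3.49 on all arrays, was below the lower quartile of each array and thus close to background, and its difference of 0.29 gives no size of change. BTG2, PLK2 and CYR61 had 1 probe set each.

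**Figure D3:**
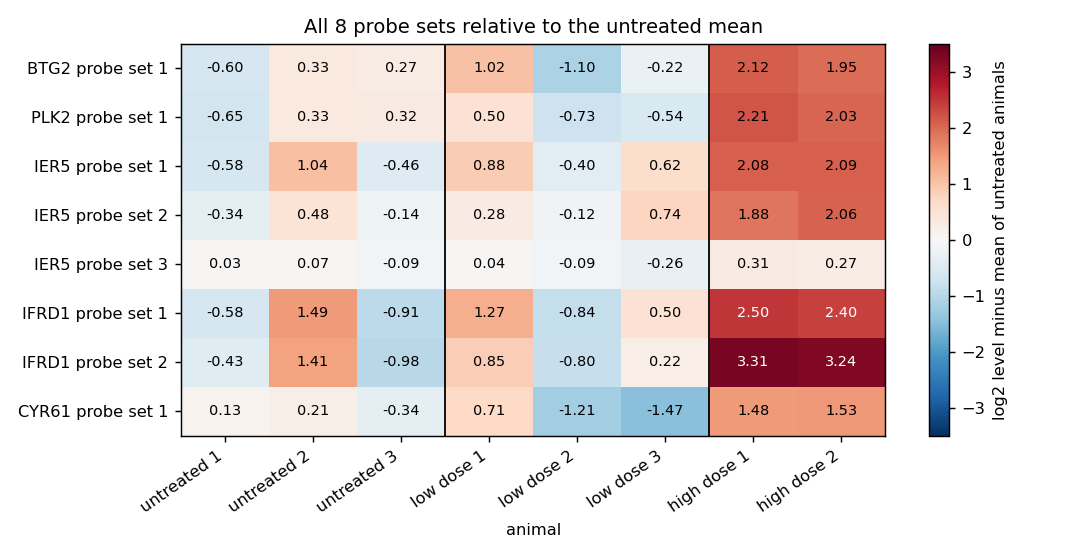
Log2 level of each of the 8 probe sets in each animal minus that probe set's mean in untreated animals, with probe sets of a gene ordered from the brightest. The 2 high-dose columns hold values from 1.48 to 3.31 except for the IER5 probe set close to background (0.31 and 0.27), and untreated replicate 2 and low-dose replicate 1 are above 0 in all 8 probe sets.

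Among the 6 animals not given the high dose, the same 2 animals led for every gene. Low-dose replicate 1 and untreated replicate 2 held the top 2 places of the 6 for all 5 genes, the low-dose animal first for BTG2, PLK2 and CYR61 and the untreated one first for IER5 and IFRD1. As the median over the 5 genes of the level minus the untreated mean, low-dose replicate 1 stood at 0.88 and untreated replicate 2 at 0.33. The other 4 animals stood between -0.84 and -0.22. The 2 leading pigs carry consecutive tag numbers, as do the other 2 untreated animals (replicates 1 and 3) and the 2 high-dose animals, but the labels name no batch, and the part of any feature such a pair shares was not tested. Without untreated replicate 2, 1 untreated pair with consecutive tags was set against the high-dose pair. The high-dose difference from untreated was then 2.20 for BTG2, 2.29 for PLK2, 2.61 for IER5, 3.19 for IFRD1 and 1.61 for CYR61. Untreated replicate 2 was the highest untreated animal for all 5 genes, so leaving it out could only widen these differences.

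The 5 genes did not all order the animals alike. BTG2 and PLK2 ranked the 8 animals identically, with Pearson's r of 0.97 over 8 arrays and 0.93 over the 6 arrays without the high dose (Spearman's rank correlation 1 in both). IER5 and IFRD1 had r of 0.99 and 0.98 over the same sets. CYR61 and IER5 had r of 0.72 over 8 arrays and 0.27 over 6, the lowest of the 10 pairs in both. In low-dose replicate 3, for example, IER5 was 0.62 above and CYR61 1.47 below its untreated mean. These correlations are descriptions: the 8 arrays share a step at the high dose, and the 6 hold a pair of groups and the 2 leading animals.

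**Figure D4:**
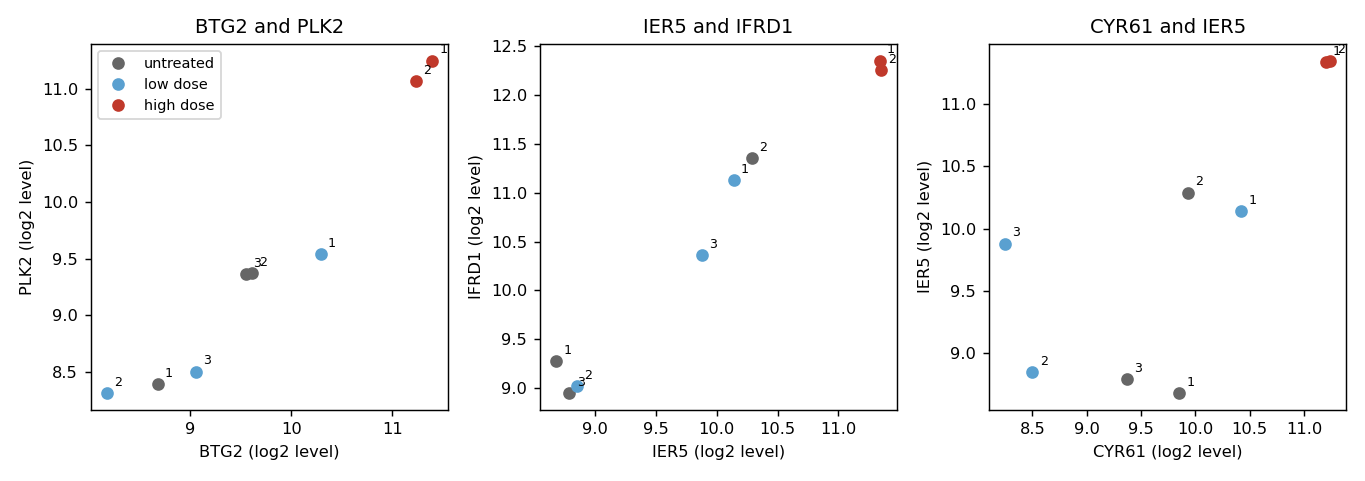
Log2 level of one gene against another in the 8 animals, numbered by replicate and coloured by group. BTG2 and PLK2, and IER5 and IFRD1, lie along a line also without the high-dose animals, whereas CYR61 and IER5 (r of 0.27 over 6 arrays) do not.

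A screen of 4921 named genes with a mean level above the median of all probe sets gave the 3 with the highest Pearson's r to each member over the 8 arrays. For BTG2 these were SSTR5 (0.988), PLK2 (0.972) and the serum- and glucocorticoid-induced kinase SGK1 (0.972), and for PLK2 they were PRDX5 (0.974), BTG2 (0.972) and DNAJC17 (0.962). The list for CYR61 held ZNF513 (0.989), the muscle protein ABRA (0.961) and NDUFV3 (0.926). IER5 and IFRD1 had the same neighbours besides each other (0.987), namely NT5C2 (0.979 and 0.990) and the AP-1 subunit FOSL1 (0.971 and 0.981).

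A high r did not mean a like size of difference. ABRA, which in muscle promotes transcription by serum response factor, differed by 1.66 between high dose and untreated, close to the 1.51 of CYR61, and FOSL1 differed by 1.52. SGK1 differed by 0.70, whereas SSTR5, ZNF513 and NT5C2 differed by 0.33, 0.27 and 0.24. The highest r of so many genes over 8 arrays is large by selection, and no p-value is attached to it.

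Other genes of the early response were compared through 10 lists, which held 86 measured genes outside the 5. These lists were drawn up with earlier results of these same arrays known, so the counts that follow are a description and no test. At the high dose against untreated 69 of the 86 were higher and 17 lower, with a median of 0.41. At least 2-fold higher with no overlap were 16 of them and 0 were lower by that rule, against 0.739% and 0.843% of the brightest probe sets of all named genes. None passed over all probe sets in limma. At an unadjusted p under 0.05 in limma 28 were higher and 2 lower, against 7.97% of all probe sets in either direction. Without untreated replicate 2 the count of 16 was 27. At the low dose against untreated 0 of the 86 were higher by the rule, against 0.0148% of the brightest probe sets of all named genes. The 0 was 7 once untreated replicate 2 was left out and 3 once low-dose replicate 2 was. Over all probe sets that count rose as well, from 18 to 113 and to 100. At the high against the low dose 15 of the 86 were higher by the rule (0.621% of the brightest probe sets), and 9 without low-dose replicate 2.

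Immediate early transcription factors held 8 of the 16. All 12 measured ones were higher at the high dose than in untreated animals, with a median of 1.83. At the low dose 10 of 12 were higher than in untreated animals, with a median of 0.51. In that low-dose comparison 0 of the 12 had an unadjusted p under 0.05 in limma (4.5% of all probe sets). None was at least 2-fold apart with no overlap there. ATF3, a stress-induced factor, was at 13.08 ± 0.04 at the high dose (SD, n = 2) and 9.50 ± 1.62 in untreated animals (SD, n = 3), a difference of 3.58 ± 1.24 (SE; limma adjusted p = 0.513). The nuclear receptors NR4A2 and NR4A3 differed by 3.31 and 2.62, and FOS by 2.34.

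Close relatives of the 5 genes mostly had smaller differences between high dose and untreated. BTG1 and TOB1, of the same antiproliferative family as BTG2, were at 0.45 ± 0.24 and 0.76 ± 0.14 (SE; limma adjusted p = 0.698 and 0.215), both without overlap between high-dose and untreated animals, and IFRD2 was at -0.01. For BTG1 the groups nearly touched, with 11.76 and 11.75 at the high dose against 11.74 in untreated replicate 2, and low-dose replicate 3 reached 11.79. Of the other polo-like kinases PLK3 was at 0.26 and PLK1, which acts in mitosis, at -0.25. The exception was IER3, an apoptosis regulator, at 2.26 ± 1.10 (SE; limma adjusted p = 0.666). It measured 12.79 and 12.33 at the high dose, against 9.0, 12.25 and 9.65 in untreated animals, so that untreated replicate 2 nearly reached the high-dose level. IER2 was at 1.15 with overlapping groups.

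Of the list around CYR61, 6 of 16 genes were measured, and its closest relatives CTGF (CCN2) and NOV (CCN3) are not analysed here. The median of the 6 was 0.11, with 0 of 6 at least 2-fold higher without overlap. Thrombospondin-1 (THBS1), another secreted matrix protein, was at 0.91 with overlapping groups, while its dimmer probe sets above background gave 1.56, 0.74 and 0.68. The YAP partners TEAD1 and TEAD4 were at 0.32 and 0.10.

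BTG2 and PLK2 are p53 targets, and among 13 measured p53 and DNA damage genes 8 were higher and 5 lower, with a median of 0.05. The growth arrest genes GADD45B and GADD45A, which stress also induces without p53, were at 1.79 and 1.21 without overlap, and GADD45G was at 0.79. CCNG2 was at -0.70. The cell cycle inhibitor CDKN1A was at -0.29 and CCNG1 at 0.05, both with overlapping groups. PMAIP1 was at 0.70 without overlap, but its mean of 3.74 was close to background. CDKN1A, CCNG1 and PMAIP1 were named after their values were seen. Whether p53 had a part in the levels of BTG2 and PLK2 was not tested.

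IER5 is linked to HSF1, and 14 of 16 genes of HSF1 and its targets were higher, with a median of 0.48 and 2 at least 2-fold higher without overlap. These were the co-chaperones DNAJB1, at 1.27 ± 0.50, and BAG3, at 1.20 ± 0.53 (SE; limma adjusted p = 0.57 and 0.623). HSPH1 and HSPB1 were at 0.76 and 0.71. IFRD1 is induced in the integrated stress response in human cells, and 7 of the 9 measured genes of that response were higher, with a median of 0.12. The phosphatase subunit PPP1R15A was at 0.73 without overlap, and DDIT3 at 0.85 and ATF4 at 0.47, both with overlapping groups. VEGFA was at -0.28 without overlap, with 0.22 and 0.35 on less bright VEGFA probe sets.

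Feedback genes were thinly covered. Of 14 MAPK phosphatase and ERK feedback genes 2 were measured: DUSP1, a phosphatase that turns off stress kinases, at 1.00 without overlap, and DUSP6 at 0.17. Of the mRNA decay and NF-kappaB feedback genes 4 were measured, with a median of 0.13: ZFP36, which destabilises early transcripts, was at 1.07 with overlapping groups, NFKBIA at -0.06, and the CCR4-NOT subunits CNOT7 and CNOT8 at 0.33 and -0.35. Among 17 other early effectors the median was 0.57. The small GTPase RND3 was at 1.36, while its dimmer probe sets gave 1.35, 0.14 and -0.05, and the GTPase GEM at 1.27 with overlapping groups. The ERBB ligand HBEGF was at 1.16 and the secreted protease ADAMTS1 at 1.13, both without overlap.

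**Figure D5:**
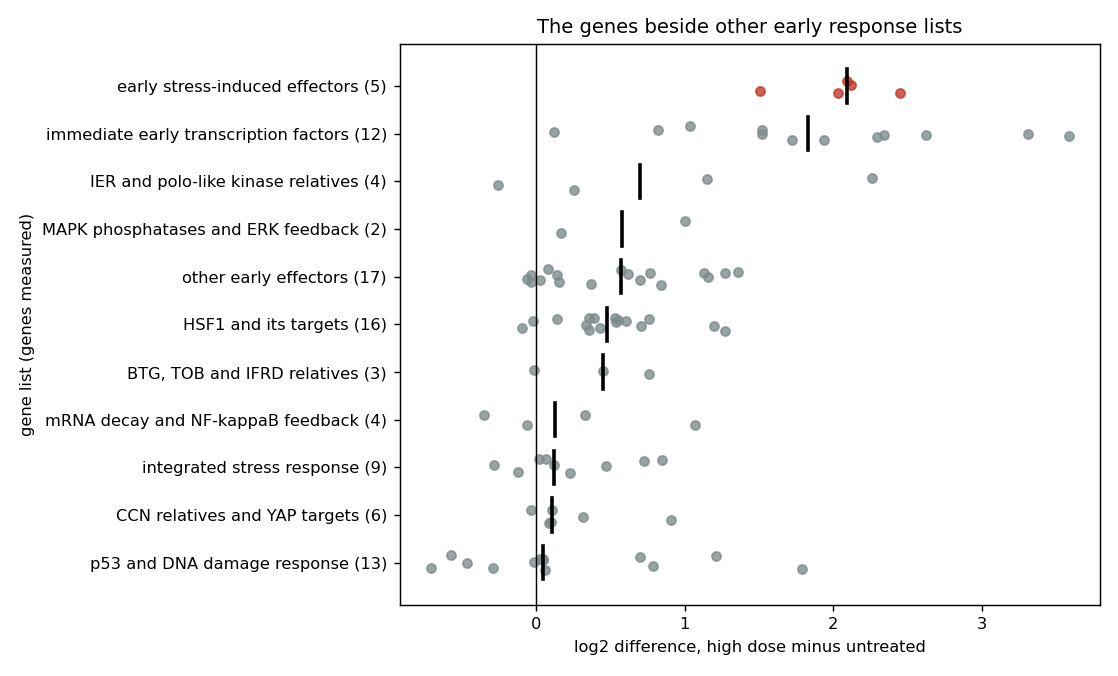
Log2 difference between high dose and untreated for each measured gene (points) by list, with the number of genes measured in parentheses and the list's median as a black bar. The 5 genes in red were chosen for high values in this comparison and have a median of 2.09, followed by immediate early transcription factors at 1.83, and the other lists have medians between 0.05 and 0.70. The other lists were also drawn up with earlier results of these data known.

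None of the measured markers of other cell types passed in limma over all probe sets, but the mean levels of some lists lay apart between groups. Macrophage markers had mean log2 levels of 6.10 to 6.24 at the high dose, against 6.55 to 7.02 in untreated animals, with 8 of 9 lower, and none was close to background. Fibroblast markers had 7.83 to 8.17 at the high dose, against 8.14 to 8.86 in untreated animals, which overlap, with 5 of 7 lower. Among them periostin (POSTN) differed most between high dose and untreated, by -2.45, and COL3A1 differed by 0.83, both without overlap. Erythrocyte genes had 5.78 to 5.80 at the high dose, against 6.05 to 6.15 in untreated animals, with 2 of 3 lower. The lower ones were ALAS2 at -0.60 and AHSP at -0.49, whose mean over the 8 arrays of 3.87 lay little above the background cut of 3.78. The beta-globin gene HBB was at 0.12 with overlapping groups. Endothelial markers had 6.62 to 6.87 at the high dose, against 6.95 to 7.0 in untreated animals, with 7 of 9 lower and KDR close to background. The 3 measured neutrophil genes (S100A8, S100A9 and S100A12) were all close to background. Smooth muscle and pericyte markers, 8 of 9 measured, had 8.91 to 8.93 at the high dose, against 8.33 to 8.97 in untreated animals, within the untreated range, with 5 of 8 higher. That mean joins unlike genes, such as CNN1 at 1.99 and RGS5 at -0.93 between high dose and untreated, both without overlap. Epicardial and mesothelial markers, 4 of 7 measured, had 4.97 to 5.25 at the low dose, against 4.31 to 4.57 in untreated animals, and 4.56 to 4.90 at the high dose. Within that list keratin 8 (KRT8) differed by 2.21 between low dose and untreated and by -1.64 between high and low dose, both without overlap. The low-dose mean of the list rests largely on KRT8. Between low dose and untreated KRT19, whose mean of 3.78 lay at the background cut, was at 0.45. KRT18 was at 0.18 and WT1 at -0.11, both with overlapping groups. The part of these differences in the levels of the 5 genes was not tested, and in whole tissue fewer cells of a type and less RNA per cell cannot be told apart.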

How the data were processed

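The files hold log2 values that the authors deposited for 24123 probe sets on each of 8 porcine arrays. They were made with RMA and Partek 6.6, per the submitters' processing notes, without stated settings. RMA makes the arrays' distributions alike, so a change shared by most genes would be removed. Deposited values lay between 2.13 and 15.01, and means under 3.78, the lower quartile, were taken as close to background. Arrays have no read depth, so the number of animals limits the precision. After 124 control probe sets were left out, limma 3.58.1 in R 4.3.3 fitted 1 mean per group to 23999 probe sets (5 residual and 3.50 prior degrees of freedom), with Benjamini-Hochberg adjustment within each comparison. The fit was tested on simulated data. Groups came from the treatment label, and each array is a different pig.

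Symbols came from the platform annotation (10069 probe sets with 1 symbol, 198 with several, 13732 with none). Genes named were all members, the 3 most alike for each by Pearson's r, and up to 4 per list with the largest high-dose difference above background. The members and lists were chosen with earlier results of these data known. The marker lists of lymphocytes (median -0.02 at the high dose against untreated, -0.15 at the low dose) and adipocytes (-0.18 and -0.10) were also measured. No sequences or coordinates were used here.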

Additional observations from a re-analysis of the deposited data

How the results depend on the processing

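Under the 17 alternative settings that keep the 2-fold rule, all 5 genes stayed at least 2-fold higher with no overlap at the high dose. This held against untreated and against low dose, where 0.542% and 0.404% of all probe sets met the rule in the main fit. Their medians ranged from 1.80 to 2.29 and from 1.64 to 2.69. The genes were chosen by their high-dose levels, several settings leave these differences unchanged, and leaving out an animal cannot create an overlap. The result is therefore no test of these genes. At the low dose none of the 5 passed in limma under any of these settings. The low-dose median ranged from -0.64 to 0.40 when single animals were left out, BTG2 from -0.66 to 0.40 and IFRD1 from -0.17 to 1.06, so their signs turned. The count of other early response genes, added after seeing the data as were its alternatives, was 13 to 27 (high against untreated), 0 to 7 (low against untreated) and 9 to 20 (high against low) without single animals. At 1.5-fold it was 28 in the first and 25 in the last, and without untreated replicate 2 and low-dose replicate 1 together, which have neighbouring tag numbers, 27 in the first and 5 at the low dose. These animals also held the highest levels of the 5 genes among animals not given the high dose. Other pairs with consecutive tag numbers were not left out.

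Over all probe sets, the count with an adjusted p under 0.05 at high dose against untreated was 4 with an intensity trend, 7 with a robust prior, 13 with array weights, 3 with median centring, 9 with renewed quantile normalization, 2 in the 2-group fit, 8 with probe sets averaged per gene, 55 without both these animals and 0 to 19 without single ones. Against the low dose it was 6, and 10 with array weights, 0 in the 2-group fit, 1 without dim probe sets, 12 without both these animals and 0 to 7 without single ones. At the low dose it was 1 without both these animals. At an unadjusted p under 0.05 the counts were 1913, 2455 and 1081. Probe sets 2-fold higher with no overlap numbered 110 to 268, 96 to 160 and 18 to 113 in the same order without single animals, and 314, 345 and 105 at 1.5-fold (9 at the low dose without dim probe sets). Those lower numbered 143 to 296, 151 to 286 and 10 to 41, and 567, 721 and 58. The cause was not tested. No paired analysis was possible, because each array is a different pig and the labels name no pairs across groups.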
